A study of Mus musculus with 2 samples.

Results

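Dmbx1, Uncx, Barhl1, Barhl2, Dbx1 and Dbx2 are 6 homeobox genes of the developing nervous system, and they were followed here in open chromatin of the mouse embryonic midbrain. The members were chosen by name and make up 6 of the 21668 protein-coding genes of GENCODE vM21. For each gene, peaks were taken within 500 bp of any of its transcription start sites (TSSs), and peaks and hotspots were taken in a span from 100 kb before the gene to 100 kb after it, on the mouse build mm10. Chromatin was assayed by DNase-seq, in which the enzyme DNase I cuts DNA where it is not covered by nucleosomes and the cut ends are sequenced. The material was midbrain of B6NCrl embryos at embryonic day 11.5, healthy, with males and females pooled, in 1 group of 2 biological replicates. The labels name no treatment or mutant allele, no control tissue or input library was analysed here, and the replicates were sequenced on different pairs of Illumina instruments, so that replicate and instrument cannot be told apart.

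The proteins of these genes bind DNA through a homeodomain, a fold that reads short sequences around TAAT. Dmbx1 and Uncx belong to the paired class, Barhl1 and Barhl2 to the BarH family, and Dbx1 and Dbx2 form a small family close to the NK-like genes. Genes of these kinds are switched on in stripes and columns of the neural tube, where combinations of them set which neurons a progenitor makes, so that each is as a rule used by some of the cells of a brain region. In a tissue sample, a weak peak from few open cells and a weak peak from partly open chromatin in many cells cannot be told apart.

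The replicates differed in what was listed. Replicate 1 held 305818 peaks with a median signal of 18, and replicate 2 held 454408 peaks with a median signal of 8, where the signal is the authors' value for each peak and has no stated unit. Read depth is unknown, so no counting interval is given. Of 8 midbrain markers, 6 had a TSS peak in both replicates, as did 4 of 4 neural progenitor markers and 5 of 5 markers of newborn neurons, while Lmx1b and Fgf8 did not. Markers of forebrain (4 of 4) and hindbrain (4 of 4) had such peaks as well, so open TSSs were found for markers of neighbouring regions too. The defining genes of blood (0 of 4) and microglia (0 of 4) had none, against 1 of 4 for endothelium and 2 of 4 for mesenchyme. The share over all protein-coding genes was 65.5%, and the counts for midbrain and mesenchyme were not far from it.

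The sequences below show the DNA at the TSS of 4 members, because the genes differ there, and the strongest site outside exons and away from a TSS for all 6, because most of their open sites lay away from a TSS. Each is read from GRCm38.p6 (mm10) 5′ to 3′ along the strand of the gene, which is the plus strand for Uncx and the minus strand for the other members. Capitals mark matches on either strand to 8 motifs: TAATTA (the homeodomain core), TAATCC (the site type of Otx and Dmbx proteins), CAGCTG (an E-box) and CAGATG (another E-box), ACAATG (read by SOX proteins) and ACAAAG (likewise), ATGCAAAT (the POU octamer) and GGGCGG (the GC box). Near a TSS, TATAAA (the TATA box) was marked as well. None of these motifs contains another. The Dmbx1 sequence (chr4:115939927-115940065) and the Barhl2 sequence (chr5:106458516-106458725) lie before exon 1 and are the parts, outside annotated exons, of sites that both replicates shared. The Dbx1 sequence (chr7:49636850-49636985) is the upstream part of the TSS peak of replicate 1. The Dbx2 sequence (chr15:95654496-95654762) is coding sequence of exon 1, at the start that RefSeq gives. For Uncx and Barhl1, the TSS site lies in an exon of GENCODE or, for the part of the Barhl1 site before the annotated start, in an exon of a longer RefSeq transcript model, and is not printed.
Dmbx1 TSS: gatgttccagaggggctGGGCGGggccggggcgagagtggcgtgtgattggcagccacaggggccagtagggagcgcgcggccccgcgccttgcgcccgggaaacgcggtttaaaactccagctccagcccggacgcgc
Barhl2 TSS: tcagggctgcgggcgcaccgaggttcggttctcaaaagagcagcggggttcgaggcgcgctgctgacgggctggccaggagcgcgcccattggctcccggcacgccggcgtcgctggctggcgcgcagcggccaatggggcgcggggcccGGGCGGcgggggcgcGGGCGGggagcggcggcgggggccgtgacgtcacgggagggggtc
Dbx1 TSS: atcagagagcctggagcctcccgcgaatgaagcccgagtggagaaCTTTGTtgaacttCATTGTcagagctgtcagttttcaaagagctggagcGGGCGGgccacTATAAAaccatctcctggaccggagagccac
Dbx2 exon 1: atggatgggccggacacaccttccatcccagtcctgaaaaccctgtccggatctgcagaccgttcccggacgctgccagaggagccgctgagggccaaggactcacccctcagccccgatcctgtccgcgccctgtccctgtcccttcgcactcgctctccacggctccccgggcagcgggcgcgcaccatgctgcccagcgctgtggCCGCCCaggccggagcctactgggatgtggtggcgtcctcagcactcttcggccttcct
Dmbx1 distal: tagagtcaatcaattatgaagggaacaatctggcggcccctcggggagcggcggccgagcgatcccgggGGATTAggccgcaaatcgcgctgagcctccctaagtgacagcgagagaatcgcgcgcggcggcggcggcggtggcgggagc
Uncx distal: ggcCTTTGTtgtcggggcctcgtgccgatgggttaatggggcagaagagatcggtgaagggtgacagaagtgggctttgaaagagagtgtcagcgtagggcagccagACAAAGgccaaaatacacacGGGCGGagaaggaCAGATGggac
Barhl1 distal: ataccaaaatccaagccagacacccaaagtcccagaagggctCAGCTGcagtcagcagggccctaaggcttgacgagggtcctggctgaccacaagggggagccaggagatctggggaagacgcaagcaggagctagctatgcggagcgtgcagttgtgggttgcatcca
Barhl2 distal: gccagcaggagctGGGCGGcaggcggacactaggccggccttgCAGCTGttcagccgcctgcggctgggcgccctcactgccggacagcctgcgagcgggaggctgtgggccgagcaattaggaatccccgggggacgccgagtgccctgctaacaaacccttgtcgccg
Dbx1 distal: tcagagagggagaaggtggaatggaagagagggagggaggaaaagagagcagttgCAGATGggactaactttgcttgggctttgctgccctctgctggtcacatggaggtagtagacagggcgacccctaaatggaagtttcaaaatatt
Dbx2 distal: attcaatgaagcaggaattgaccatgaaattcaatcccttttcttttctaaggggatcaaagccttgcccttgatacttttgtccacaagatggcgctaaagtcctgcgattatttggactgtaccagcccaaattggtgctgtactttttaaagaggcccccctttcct
The distal sequences are those of chr4:115963096-115963245 for Dmbx1, chr5:139535636-139535785 for Uncx, chr2:28976776-28976945 for Barhl1, chr5:106451956-106452125 for Barhl2, chr7:49616376-49616525 for Dbx1 and chr15:95574836-95575005 for Dbx2. The TSS sequence of Barhl2 was 79.0% G and C and held 33 CpG pairs in 210 bases, and that of Dmbx1 was 71.9% G and C with 16 CpG pairs in 139 bases. The Dbx1 sequence held TATAAA and, just before it, GGGCGG. Among 32851 RefSeq promoters of 250 bases, 12.4% held TATAAA on either strand and 32.7% held GGGCGG. The distal Dmbx1 site held GGATTA, the reverse complement of TAATCC, which is the type of site read by Otx and Dmbx proteins and was present in 4.73% of all shared distal sites. The distal Uncx site held ACAAAG on both strands, CAGATG and GGGCGG, and the distal Dbx2 site held none of the 8.

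Of the 6 genes, 5 had a TSS peak in both replicates, and Dbx2 had one in replicate 2 alone. Over all protein-coding genes, 65.5% had a TSS peak in both replicates and 3.97% had one in replicate 2 and none in replicate 1. Where a gene had several peaks within 500 bp of its TSSs, the strongest in each replicate is given, and the percentile places it among all peaks of that replicate. The medians over all 21668 genes, with genes without a peak counted as 0, were 82 in replicate 1 and 53 in replicate 2. Ranked among all genes in this way, the 5 members with peaks in both lay between percentiles 38.7 and 54.9 in replicate 1 and between 47.3 and 59.1 in replicate 2, except Dmbx1, which reached 89.3 in replicate 2.

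Dmbx1, a paired-class gene named for its expression in the diencephalon and mesencephalon, had the TSS signals that differed least between replicates in raw value. They were 88 in replicate 1 and 86 in replicate 2 (mean 87.0 ± 1.41, SD, n = 2). The lists had unlike medians (18 and 8), and in rank the signals differed more. They stood at percentiles 93.9 and 99.5 of the peaks, and at 52.0 and 89.3 among all genes. The peak midpoints lay 64 bp and 44 bp before the 5′ TSS, and a second shared peak 455 bp inside the gene had signals of 47 and 51. The internal TSS of transcript Dmbx1-201, at chr4 position 115925638, had no peak within 500 bp in either replicate, and the nearest midpoints were 6332 bp and 6448 bp away.

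Uncx, a paired-class gene best known from the somites and the axial skeleton, had signals of 89 and 49 (69.0 ± 28.3, SD, n = 2). This was the widest gap in raw signal between replicates among the 5 genes, yet the percentiles were 94.1 and 94.7. The strongest peaks were centred 27 bp before and 12 bp after the second TSS, at position 139543898 on chr5, which is the start RefSeq gives. At the first TSS, 404 bp upstream, replicate 1 had a peak of 41 and replicate 2 had peaks of 25 and 23.

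Barhl1, which is expressed in the cerebellum, inner ear and parts of the brainstem and diencephalon, had the lowest mean TSS signal of the 5, with signals of 42 and 50 (46.0 ± 5.66, SD, n = 2). They stood at percentiles 77.5 and 94.9 and were not at the same place. The peak of replicate 1 was centred 17 bp inside the 5′ TSS, the strongest of replicate 2 lay 477 bp inside it, and a weaker one of replicate 2, with a signal of 33, overlapped that of replicate 1. RefSeq gives a second start for the gene, at chr2 position 28912495, and a shared site at chr2:28912536-28912705 next to it had signals of 43 and 41.

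Barhl2, which acts in retinal and commissural neurons and in the forebrain, had signals of 95 and 63 (79.0 ± 22.6, SD, n = 2), at percentiles 95.0 and 97.3. The strongest peaks were centred 424 bp and 484 bp before the TSS. Closer to the TSS, peaks centred 24 bp before it in replicate 1 and 164 bp before it in replicate 2 had signals of 37 and 61, so with a window of 150 bp the mean was 49.0 in place of 79.0.

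Dbx1, which marks progenitors at the middle of the dorsoventral axis of the neural tube, had signals of 81 and 59 (70.0 ± 15.6, SD, n = 2). The peaks stood at percentiles 92.5 and 96.7 and did not overlap. That of replicate 1 (chr7:49636836-49636985) was centred 61 bp before the TSS, and that of replicate 2 (chr7:49636656-49636805) 118 bp after it. Dbx1 therefore had an open TSS in both replicates but no shared site within 500 bp, and these peaks were the strongest of its span that 1 replicate listed alone.

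Dbx2, whose expression domain in the neural tube includes and extends past that of Dbx1, had no peak within 500 bp of its GENCODE TSS (chr15 position 95655960) in replicate 1. In replicate 2 there were 3 weak peaks, with signals of 7, 7 and 6 at or below percentile 45.6. RefSeq places the start at position 95654771, 1189 bp inside the GENCODE gene, and there a shared site (chr15:95654496-95654865) had signals of 72 and 38, with the replicate 1 peak centred 19 bp before that start. With RefSeq starts, an annotation chosen after the data were seen, 6 of 6 members had a peak in both replicates, against 66.3% of 16442 genes that have such a start. The call for Dbx2 thus depended on which annotated start was used, as the plot of TSS signals shows.

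**Figure D1:**
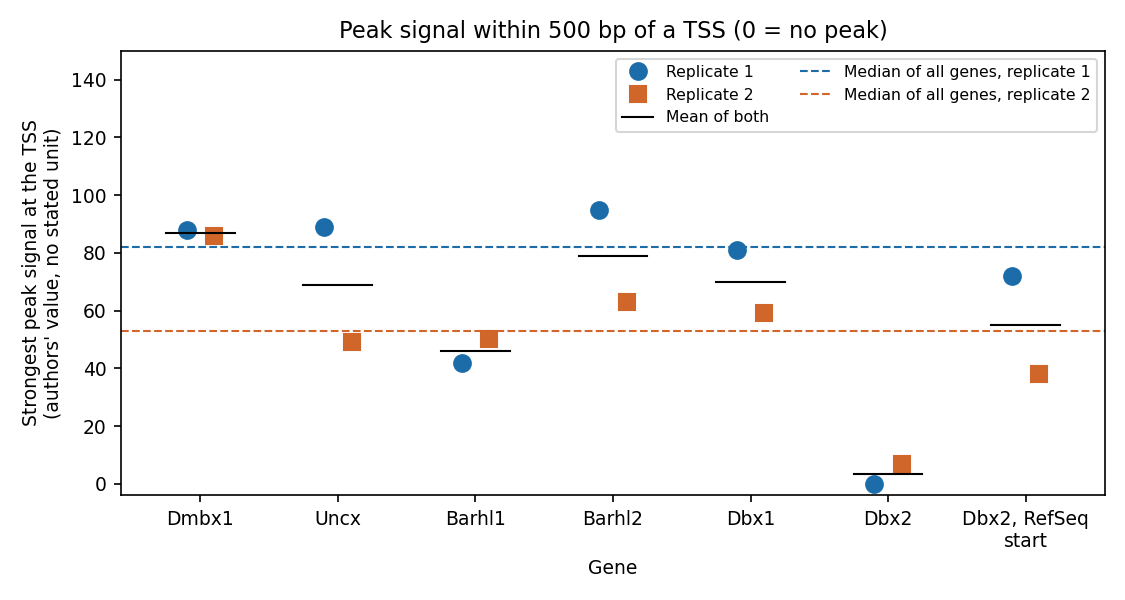
Signal of the strongest peak within 500 bp of a TSS for each gene (authors' value, no stated unit), with replicate 1 as circles, replicate 2 as squares and their mean as a line; dashed lines are the medians over all genes, those without a peak counted as 0 (82 and 53). Dmbx1 had nearly equal values, Dbx2 had 0 and 7 at its GENCODE TSS and 72 and 38 at its RefSeq start.

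Dbx2 also stood apart in the base composition of its annotated promoter. CpG pairs are depleted from most of the genome but kept at many promoters, and the ratio of observed to expected CpG in the window of 500 bp on each side of the 5′ TSS was 1.07 for Barhl2, 0.85 for Dmbx1, 0.80 for Uncx, 0.64 for Barhl1 and Dbx1, and 0.19 for Dbx2. All genes were ranked by this ratio and cut into 10 equal classes from low to high. Barhl2 was in class 10, where 99.2% of genes had a TSS peak in both replicates, and Dbx2 in class 3, where 20.4% had. The share was 98.9% in class 9, which held Dmbx1, 98.6% in class 8, with Uncx, and 95.0% in class 6, with Barhl1 and Dbx1. Around the RefSeq start, the ratio for Dbx2 was 0.61.

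The spans of the 6 genes held 677 sites after peaks that overlapped by at least 1 bp were merged, and 151 of them (22.3%) held a peak of both replicates. Such sites are called shared below. Genome-wide, 15.4% of 583597 merged sites were shared. The sites of replicate 1 in the spans were shared in 53.0% of cases and those of replicate 2 in 27.8%, against 31.9% and 22.9% genome-wide. Sites of 1 replicate alone numbered 134 in replicate 1 and 392 in replicate 2.

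Counts differed between the genes by more than 3 times. Uncx had 46 shared sites, Dbx1 28, Dmbx1 26, Barhl2 20, Dbx2 18 and Barhl1 13, where the median span of all protein-coding genes had 13. Uncx stood at percentile 98.8 of all genes and Barhl1 at 50.1, with Dbx1 at 88.9, Dmbx1 at 86.1, Barhl2 at 73.7 and Dbx2 at 68.0. For Uncx, 37.7% of the merged sites were shared, and for Dbx1 32.2%. The shares of Barhl1 (11.3%) and Dbx2 (14.8%) were below that of the genome. Promoters of neighbouring genes made up 8 of the 151 sites, 4 of them around Dmbx1, whose span holds 7 other protein-coding genes.

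The sites crowded around the genes themselves. Within 10 kb of a TSS of the member lay 69 of the 151 shared sites (45.7%), against 16.1% of the shared sites in the spans of all genes. Uncx had 26 such sites, Dbx1 14, Barhl2 12, Dmbx1 8 and Barhl1 7, at or above percentile 95.1 of all genes, whose median was 2. Dbx2 was the exception with 2, at percentile 53.8. For 119 of the 151 sites, the member was the gene with the nearest protein-coding TSS. By gene it was 42 of 46 for Uncx, 23 of 28 for Dbx1 and 19 of 20 for Barhl2. It was 13 of 18 for Dbx2 and 11 of 13 for Barhl1, but only 11 of 26 for Dmbx1. Most sites were intergenic (100), 34 were in introns, 9 in coding exons and 8 in other exonic sequence, and 30 lay inside the members.

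**Figure D2:**
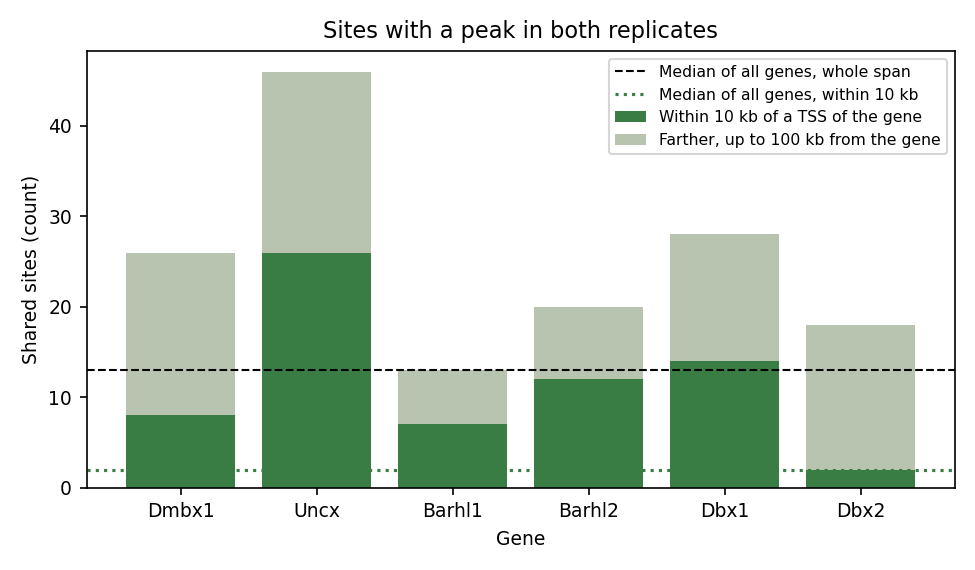
Number of sites with a peak in both replicates in the span of each gene, divided into those within 10 kb of a TSS of the gene (dark) and those farther away (light); the lines are the medians over all genes, 13 for the span and 2 within 10 kb. Uncx had the most (46, of which 26 were near) and Dbx2 the fewest near its TSS (2).

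A window of 25 kb was slid over each span, a step chosen after the data were seen. The densest window of Uncx held 32 shared sites from 7783 bp before to 15626 bp after the 5′ TSS, a number that 16 of the 21668 genes, Uncx among them, reached or passed. Spans of neighbouring genes overlap, so these 16 genes need not be separate loci. Dbx1 had 15 and Barhl2 14 in their densest windows, at percentiles 97.7 and 97.2, followed by Dmbx1 with 10, Dbx2 with 9 and Barhl1 with 8. The median over all genes was 5. In each case the window was at the member: that of Dmbx1 ran from 15374 bp before to 3565 bp after the TSS, and that of Dbx2 from 1279 bp to 19079 bp inside the gene.

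**Figure D3:**
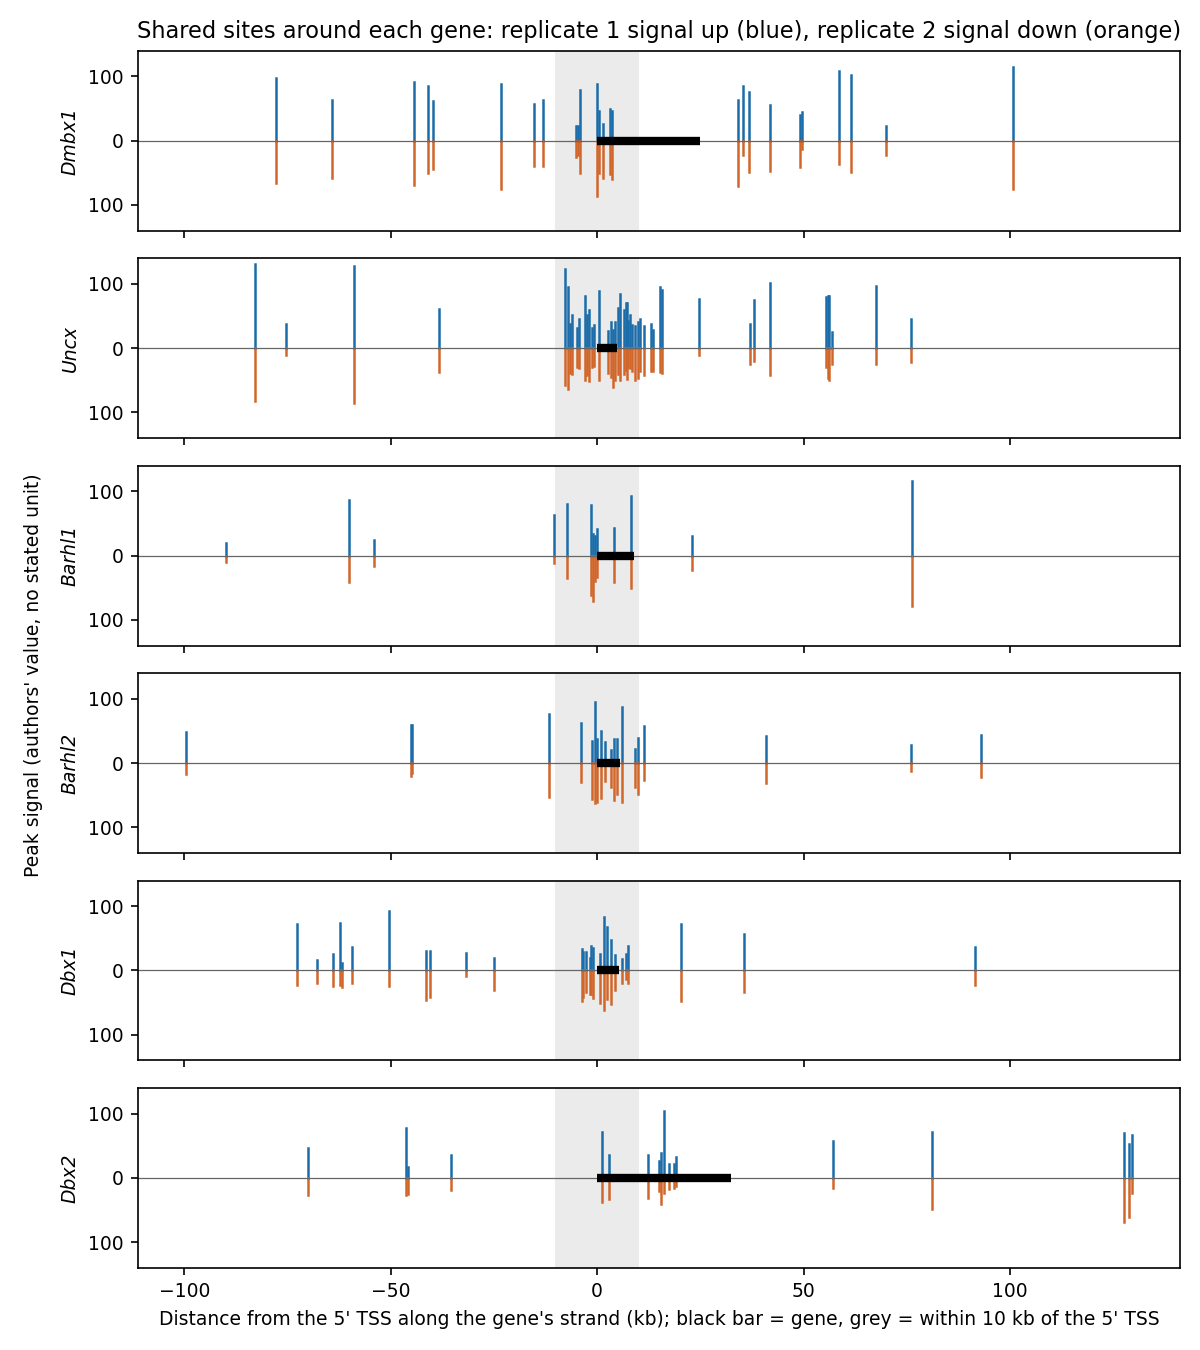
Position of each shared site along the strand of the gene, in kb from the 5′ TSS, with the signal in replicate 1 drawn upwards and that in replicate 2 downwards (authors' value); the black bar is the gene and the grey band the 10 kb on each side of the TSS. Sites of Uncx, Barhl2 and Dbx1 crowd in the band, and those of Dbx2 lie in 1 group inside the gene and at scattered places outside it.

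Distal sites, over 2.5 kb from every protein-coding TSS, made up 116 of the 151. They numbered 38 for Uncx, 22 for Dbx1, 19 for Dmbx1, 15 for Barhl2, 14 for Dbx2 and 8 for Barhl1, where the median gene had 6. The strongest are described by their signal in replicate 1 and then in replicate 2, ranked by the mean of their percentiles in the peak lists.

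Near Dmbx1, the strongest distal site (printed above) lay 23244 bp before the TSS, between Dmbx1 and its neighbour Faah, with signals of 88 and 75. The next, with 91 and 69, was inside an intron of Faah, 44364 bp before the TSS, and the one after it, with 102 and 49, was in an untranslated exon part of Mknk1 on the other side. The body of Dmbx1 beyond its 5′ end held none: no shared site lay between 3565 bp and 34035 bp after the TSS.

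Uncx had its strongest distal site (printed above) 7783 bp before the first TSS, with signals of 123 and 58, and the next 7073 bp before it, with 95 and 64. Both were stronger than the TSS peak in both replicates. They lie in one hotspot of replicate 2 of 3574 bp and within the noncoding gene 4930500L23Rik. The next by rank, with 102 and 42, lay 41916 bp after the first TSS. A run of 20 sites lay from 2.5 to 10 kb from a TSS of Uncx on either side, and 3 of the sites inside the gene were in coding exons. A group of 4 sites stood apart from 55396 bp to 56826 bp after the TSS, with signals from 25 to 81 in replicate 1 and from 25 to 49 in replicate 2.

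For Barhl1, the strongest distal site was in an untranslated exon part near the 3′ end of the gene, with signals of 93 and 51, against 42 and 50 at the TSS. The printed site, with 86 and 41, lay 60192 bp upstream in an intron of Cfap77, and the next, with 81 and 35, lay 7412 bp upstream. Just before the TSS, from 622 bp to 1432 bp upstream, 3 shared sites had signals of 31, 34 and 78 in replicate 1 and of 39, 71 and 61 in replicate 2, so that in replicate 2 each of the last 2 was stronger than any peak at the TSS.

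Barhl2 lies in a gene desert, with no other protein-coding gene in its span and the nearest, Gm17304, 150931 bp away. Its strongest distal site (87 and 60, printed above) lay just past the 3′ end, 6125 bp after the TSS, and the next (77 and 53) lay 11564 bp before it, within the noncoding gene Gm26872. The site ranked after these (62 and 29) lay 3974 bp before the TSS. A pair of adjacent sites of lower rank, 44754 bp and 45064 bp upstream, had signals of 59 and 59 in replicate 1 and of 16 and 20 in replicate 2.

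The strongest distal site of Dbx1 (73 and 48, printed above) lay 20398 bp after the TSS, between Dbx1 and Nav2. Another, 50351 bp upstream, had a signal of 92 in replicate 1 and 24 in replicate 2. The next by rank, in a coding exon of Dbx1 3288 bp after the TSS, had signals of 48 and 52. Upstream sites went on to 72841 bp before the TSS and numbered 11 between 24891 bp and that point, while the downstream side beyond 10 kb held 3.

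Around Dbx2, 9 shared sites were inside the gene, and 7 of these lay from 12239 bp to 19079 bp after the TSS, in introns. The strongest of that group had signals of 104 and 24 and was centred 16299 bp after the TSS. By mean percentile the first distal site of the span (71 and 49, printed above) lay 81039 bp after the TSS, nearer to the TSS of Nell2, a neighbour on the same side, than to that of Dbx2. Ranked after it were the site of 104 and 24 and one 46300 bp before the TSS, with 78 and 26. At the far end, 3 sites in an intron of Nell2, from 127639 bp to 129679 bp away, had signals of 52 to 70 in replicate 1 and of 24 to 69 in replicate 2 and lay within 2.5 kb of a TSS of Nell2.

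Replicate 2 had the higher signal at 43 of the 151 shared sites (28.5%), against 10.4% of the 89717 shared sites of the genome, where the median signal was 49.0 in replicate 1 and 27.0 in replicate 2. Within 10 kb of a member's TSS, 31 of 69 sites (44.9%) were higher in replicate 2, and beyond 10 kb 12 of 82 (14.6%) were. Genome-wide, 14.2% of shared sites within 10 kb of a protein-coding TSS and 7.21% of those beyond were higher in replicate 2. Near Barhl2 it was 8 of 12, near Dbx1 9 of 14 and near Dmbx1 5 of 8. Uncx had 7 of 26, Barhl1 2 of 7 and Dbx2 0 of 2. The median signals near Barhl2 were 37.5 and 52.0, near Dbx1 31.5 and 39.0, and near Dmbx1 46.5 and 51.5. The sites near a member were also richer in CpG (median ratio 0.66) than those beyond (0.40). With the genome's shared sites cut into 4 equal classes by CpG ratio, the share higher in replicate 2 was 22.2% in the spans and 7.40% genome-wide in the lowest class, 29.0% and 8.62% in the next, 24.4% and 12.7% in the next, and 33.3% and 12.7% in the highest. In the spans these shares rest on 4 of 18, 9 of 31, 11 of 45 and 19 of 57 sites, from the lowest class to the highest. Each was above the genome-wide share of its class, and distance to a TSS was not held fixed. Neighbouring sites share a locus and both values come from the same libraries, so these shares describe 2 libraries. The part that CpG content, sequencing instrument or depth plays was not tested.

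**Figure D4:**
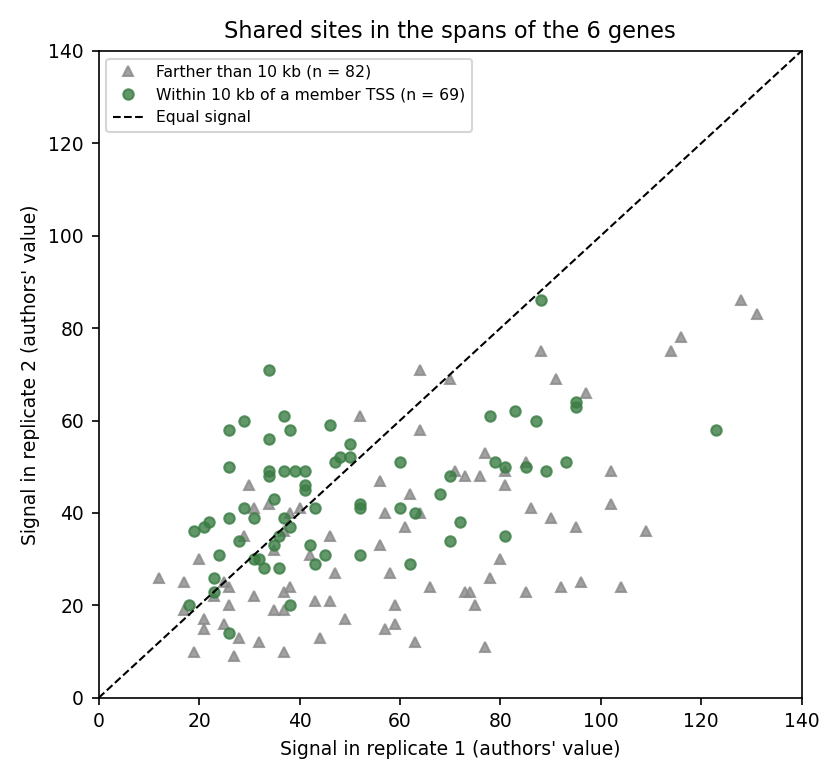
Signal of each of the 151 shared sites in replicate 1 (x axis) and replicate 2 (y axis), with sites within 10 kb of a TSS of a member as circles (n = 69) and the others as triangles (n = 82); the dashed line is equal signal. Circles lie above the line in 31 cases and triangles in 12.

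Hotspots, which the authors listed beside the peaks as broader stretches of raised cutting, were wide near these genes in replicate 2. The widest hotspot in a span measured 2553 bp for Dmbx1, 3574 bp for Uncx, 5776 bp for Barhl1, 8921 bp for Barhl2, 4888 bp for Dbx1 and 7055 bp for Dbx2 in replicate 2, where 99% of all hotspots were narrower than 2342 bp. In replicate 1 the widest measured 1106, 2331, 1626, 2742, 1765 and 1590 bp in the same order, with 99% of all under 1695 bp. Only for Dbx1 did the widest hotspots of the 2 replicates overlap. In replicate 1 those of Dmbx1, Barhl1 and Dbx2 had midpoints 111801, 76388 and -80374 bp from the 5′ TSS, where minus means before it. The 99% limits were set after the data were seen. Hotspots past them were found in the spans of 6 of 6 genes in replicate 2 and 3 of 6 in replicate 1, against 40.6% and 33.8% of all protein-coding genes. The 17 such hotspots of replicate 2 and the 5 of replicate 1 in these spans each had the ceiling value of 100 on the −log10 q scale.

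The widest of Barhl2 ran from 14338 bp to 5418 bp before the TSS, over the noncoding gene Gm26872. It held 14 peaks of replicate 2 and 2 of replicate 1, and hotspots of replicate 1 covered 4.17% of it. The 7055 bp hotspot of Dbx2 ran from 89 bp before the GENCODE TSS to 6965 bp inside the gene, with 14 peaks of replicate 2, 2 of replicate 1 and 15.0% covered. Barhl1 had 3 wide hotspots of replicate 2 that lay, with gaps, from 3096 bp before the TSS to 9091 bp after it, and replicate 1 covered 22.4%, 0% and 18.5% of them. At Uncx the picture was different, since replicate 1 covered 84.4% and 89.9% of the wide hotspots of replicate 2. The wide hotspot at the Dbx1 TSS (4888 bp) was covered in 80.1% of its length and that at the Barhl2 TSS (3160 bp) in 93.3%. In the span of Dbx2, replicate 1 covered from 0% to 66.6% of the other 4 wide hotspots of replicate 2. The wide hotspots of replicate 2 around Barhl1, over the start of Dbx2 and upstream of Barhl2 thus had at most 22.4% of their length covered by hotspots of replicate 1. Shared sites inside them included ones with signals of 93 and 51 at Barhl1, 72 and 38 at Dbx2, and 77 and 53 at Barhl2. The 3058 bp hotspot of Barhl1 held no shared site.

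**Figure D5:**
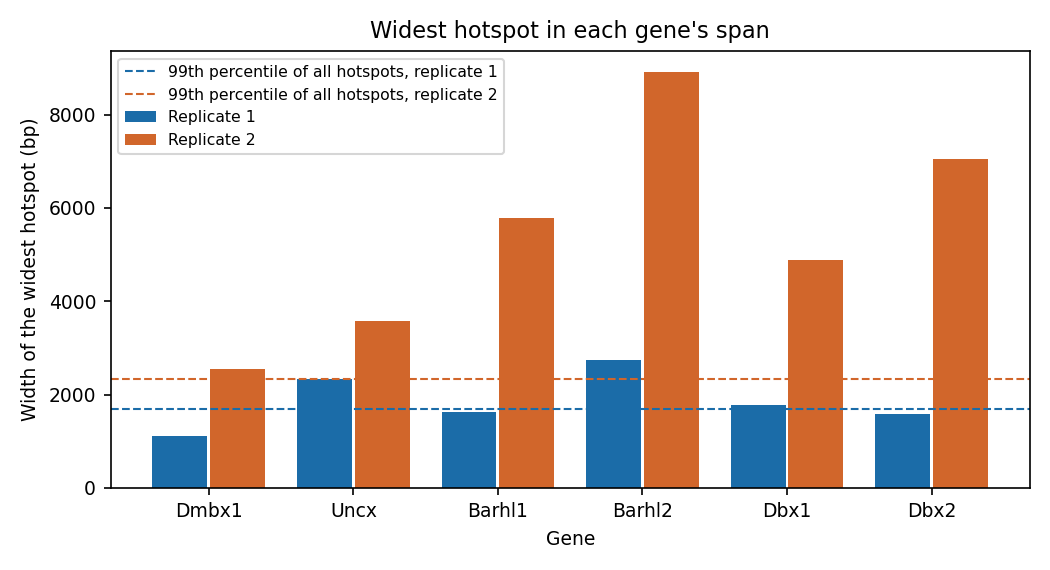
Width in bp of the widest hotspot in the span of each gene, for replicate 1 (blue) and replicate 2 (orange); dashed lines are the 99th percentile of all hotspot widths (1695 and 2342 bp). In replicate 2, 6 of 6 genes pass the line, by the most at Barhl2 (8921 bp). Except for Dbx1, the bars of replicate 1 and replicate 2 are hotspots at different places.

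Short sequences that transcription factors read were counted in the 150 bp around each distal shared site, on both strands, as a description of the sites. TAATTA, a core bound by many homeodomains, was in 6 of the 116 distal sites of the members (5.17%) and 3.50% of 60578 distal shared sites of the genome. TAATCC was in 8 (6.90%, against 4.73%), of which 3 were near Uncx, 2 near Barhl2, 2 near Dbx1 and 1 near Dmbx1. The E-boxes CAGATG and CAGCTG, read by proneural factors, were in 19.0% and 13.8%, against 15.0% and 14.6%. The SOX sequences ACAATG and ACAAAG were in 5.17% and 9.48%, against 9.82% and 16.8%, and the octamer ATGCAAAT was in 0.862%, against 1.44%. GGGCGG was in 16.4%, against 8.19%, with 6 of its 19 sites at Uncx and 5 at Dmbx1. These counts are small and were not tested.

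Related genes give the range in which these values stand. Of 25 paired-class relatives of Dmbx1 and Uncx found in the annotation, 19 had a TSS peak in both replicates. So did 19 of 23 relatives of the Barhl and Dbx genes and 18 of 18 genes that share neural tube domains with the members. The share over all protein-coding genes was 65.5%. The median signals at the TSS were 51.0 and 49.0 in the paired class, 66.0 and 59.0 in the relatives of Barhl and Dbx, and 98.0 and 62.0 in the domain partners, against 84.5 and 54.5 for the 6 members. Distal shared sites had medians of 10.0, 15.0 and 17.5 in the 3 lists and 17.0 in the members. Otx2, a midbrain and forebrain regulator of the same class as Dmbx1, had TSS signals of 73 and 56 and 19 distal shared sites, as many as Dmbx1. Like Dbx2, Lbx2, Noto and Nanog of the relatives of Barhl and Dbx had a TSS peak in replicate 2 alone, with signals of 38, 21 and 11.

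The genes most like each member were found over all protein-coding genes by the Euclidean distance of 5 percentiles, those of both TSS signals, of the number of distal shared sites and of the hotspot length of the span in both replicates. They were Rab12 and Hist1h4i for Dmbx1 (distances 5.23 and 6.94), Sox5 and Zdhhc22 for Uncx (3.66 and 4.21), Gsc2 and Nkx2-4 for Barhl1 (8.27 and 8.54), and Gsx1 and Lhpp for Barhl2 (4.90 and 6.13). For Dbx1 they were Grasp and Rapgef5 (7.66 and 8.42), and for Dbx2 H2-DMb2 and AC140267.1 (1.42 and 2.87). Sox5 had TSS signals of 94 and 47 and 45 distal shared sites, and Gsx1, another homeobox gene of the neural tube, had 95 and 61 with 17 sites. The measure uses 2 libraries and 5 values a gene.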

How the data were processed

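DNase-seq was carried out on midbrain of B6NCrl mouse embryos at embryonic day 11.5, in 2 biological replicates, numbered as in the labels. Per the deposited file records, the authors listed peaks and hotspots for each replicate from its own alignments on mm10. The aligner and the caller were not given in the sources used here. For each peak, the signal is the authors' deposited value, a whole number up to 148 in replicate 1 and 130 in replicate 2 with no stated normalization, and it was used to describe and rank peaks. The hotspot q-values were deposited by the authors on a −log10 scale, from 1.30 to a ceiling of 100. Depth is not given, so the precision of single values is unknown, and with 1 group no test between samples could be made.

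Peaks on chromosomes 1 to 19 and X were joined where they overlapped by at least 1 bp, with GENCODE vM21 basic transcripts and GRCm38.p6 (python 3.11.15, numpy 2.4.6, pysam 0.24.0, samtools 1.23.1, matplotlib 3.10.9). The functions that count sites were tested on simulated data. The members, lists and motifs were chosen with earlier results of these data known. The text names the members, their TSS peaks, the 3 strongest distal shared sites each by mean percentile, the widest hotspot per replicate, and 2 most alike genes outside 200 kb. The strongest unshared site per replicate is named for some of the members. Alternatives were other TSS windows, transcripts and spans, a stricter overlap, stronger peaks, promoters of other genes left out, hotspots for peaks, and each replicate alone. RefSeq starts were added after the data were seen. Of 26 paired-class genes listed, 25 were found by symbol.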

Additional observations from a re-analysis of the deposited data

How the results depend on the processing

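The number of members with a TSS peak in both replicates was 5 with windows of 150 and 1000 bp, with all transcripts, with the stronger 50% of peaks and with hotspots. It was 6 with RefSeq starts, because Dbx2 then had a peak in both. With a single replicate it was 5 to 6. The number of shared sites, 151, was 84 where an overlap of at least 50% of the shorter peak was required. That rule by its construction drops sites with smaller overlaps. With 1 replicate, where every merged site counts, it was 289 to 547. Spans of 50 kb gave 120, the stronger 50% of peaks 147, hotspots 102, and leaving out promoters of other genes 143. The share of sites that were shared, 22.3%, ranged from 12.4% with the stricter overlap to 29.3% with the stronger peaks. The genome-wide 15.4% is for an overlap of 1 bp and all peaks, so it is no background for these 2 shares. At the stricter overlap, Uncx had 23 sites, Dmbx1 19, Dbx1 17, Barhl2 10, Dbx2 8 and Barhl1 7. The percentiles, the counts within 10 kb and the 25 kb windows are given for an overlap of 1 bp alone. So are the shares of sites higher in replicate 2. Within 1000 bp the mean TSS signal of Barhl1 was 56.5 in place of 46.0. No paired analysis was possible because the series has 1 group. Limits are that depth is unknown, that 2 replicates give no test, and that spans of neighbouring genes overlap.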

Other observations

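Among sites that 1 replicate listed alone, the strongest in replicate 1 were one of signal 99 in the span of Dbx2 (chr15:95528596-95528745, 127289 bp after the TSS of Dbx2 and beside a shared site 68 bp from a TSS of Nell2) and one of 95 in the span of Barhl1 (chr2:28840556-28840705, in an exon of Ddx31). In replicate 2 they were one of 66 near Dmbx1 (chr4:115898296-115898445, in a coding exon of 6430628N08Rik), one of 62 upstream of Barhl2 (chr5:106463956-106464105, inside the widest hotspot), the TSS peak of 59 at Dbx1 and one of 53 in an intron of Barhl1 (chr2:28912056-28912205). That of Dbx2 in replicate 2 (chr15:95653976-95654125) had a signal of 44 and lay in intron 1, 1909 bp after the GENCODE TSS. The unshared sites had lower raw signals in replicate 2 than in replicate 1 near 4 genes. The median signals were 14 against 30 for Dmbx1, 10 against 29 for Uncx, 9 against 40 for Barhl1 and 7 against 16 for Dbx2. At Barhl2 they were equal (26), and at Dbx1 they were 21 in replicate 2 and 19 in replicate 1. The median of all peaks was 8 in replicate 2 and 18 in replicate 1, so raw values do not compare the ranks of the sites in their lists.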
